A study of Mus musculus with 4 samples.

Results

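The 2 mouse squamous cell carcinoma lines compared here are AOC11, grown from an oral tumor, and AOC11-LN, grown from a metastatic tumor in a lymph node, and their transcriptomes were compared gene by gene. Of 34685 genes in the expression table, 13078 were compared, namely those with at least 1 FPKM (fragments of a transcript scaled to its length and to the size of the library) in either line and a longest transcript of at least 200 bases. Of these, 11063 were protein-coding. Each line was represented by 1 library, so the values below describe these libraries, and no test, error or p-value could be given for any difference. A difference is AOC11-LN minus AOC11 on the log2(FPKM + 1) scale, which understates the change of genes with low values, and a gene is named higher or lower where that difference passed 1 in size.

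Both lines came from the same C57BL/6 mouse, whose buccal mucosa was treated with the carcinogen 7,12-dimethylbenzanthracene (DMBA), which forms DNA adducts. Tumor cells were cultured in DMEM/F12 medium with fetal bovine serum, grown as subcutaneous tumors in the flank of further C57BL/6 mice, depleted of fibroblasts with a magnetic isolation kit and returned to culture. The labels name AOC11 an oral cancer line and AOC11-LN a lymph node metastatic line, and give no treatment for either. The series also holds a second pair made in the same way, AOC3 and AOC3-LN, whose values are given beside those of the AOC11 pair. Each line is 1 isolate, so what differs between a primary tumor and its metastasis cannot be told apart from what differs between any 2 cultures. RNA was extracted with TRIzol, and stranded, poly(A)-selected paired-end libraries were sequenced.

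Squamous epithelium is built from basal cells that hold on to a basement membrane through integrins and laminins, and from layers above them that make keratins, junction proteins and finally the cornified envelope. Squamous carcinoma cells keep part of this program. They also secrete cytokines that call in neutrophils and macrophages, and they read interferons, growth factors and cell tension through JAK and STAT proteins, the ERK kinases and the YAP and TEAD regulators, each with known target genes.

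Epithelial markers were high in both lines. Of 14 epithelial markers, listed for squamous epithelium, 13 in AOC11 and 12 in AOC11-LN reached 1 FPKM. Their summed level was 3465 FPKM in AOC11 and 3597 FPKM in AOC11-LN. The simple epithelial keratin gene Krt18 was the highest of them in both lines, so the sum does not show a squamous identity. Epcam, an epithelial adhesion protein, was at 416 FPKM in AOC11 and 493 in AOC11-LN. Cdh1, which encodes E-cadherin, was at 151 FPKM in AOC11 and 183 in AOC11-LN, and neither gene passed the threshold. Both lines were low in Trp63, the basal lineage transcription factor, with 0.0848 FPKM in AOC11 and 0.841 in AOC11-LN. Markers of other cell types were sparse. T cell marker Cd3e was listed at 0 in both lines, pan-leukocyte Ptprc was at 0.0392 FPKM in AOC11 and 0.0488 in AOC11-LN, and endothelial Pecam1 at 0.177 FPKM in AOC11 and 0.332 in AOC11-LN. The 12 fibroblast markers summed to 6.80 FPKM in AOC11 and 36.7 FPKM in AOC11-LN. Almost all of that gap was Pdpn, and collagen I gene Col1a1 was at 0.308 FPKM in AOC11 and 0.407 in AOC11-LN. Macrophage receptor gene Csf1r was at 20.8 FPKM in AOC11 and 6.01 in AOC11-LN. In bulk RNA, fewer cells that express a gene and less RNA per cell cannot be told apart.

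The AOC11 library stood apart from the other 3 in ribosomal RNA-like and small noncoding loci. The 12 such loci, listed after their values were seen, summed to 825 FPKM in AOC11, 11109.5 FPKM in AOC11-LN, 8730 FPKM in AOC3 and 11576 FPKM in AOC3-LN. This list includes the protein-coding gene Lars2. AOC11 was the lowest of the 4 lines in all 12, and 11 of them were higher in AOC11-LN. The locus CT010467.1 was at 346 FPKM in AOC11, 6765 in AOC11-LN, 5399 in AOC3 and 6923 in AOC3-LN. The AOC11-LN library stood apart in the 13 mitochondrially encoded mRNAs, which summed to 27843 FPKM in AOC11 and 13001 FPKM in AOC11-LN against 32333 FPKM in AOC3 and 28591 FPKM in AOC3-LN. The median difference of protein-coding genes also ran with transcript length, from 0.25 in the shortest of 7 length bins to -0.23 in the longest, while in the AOC3 pair it stayed between 0.05 and -0.08. The steps between low values correspond to about 33820000 fragments in AOC11 and 32440000 in AOC11-LN.

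**Figure D1:**
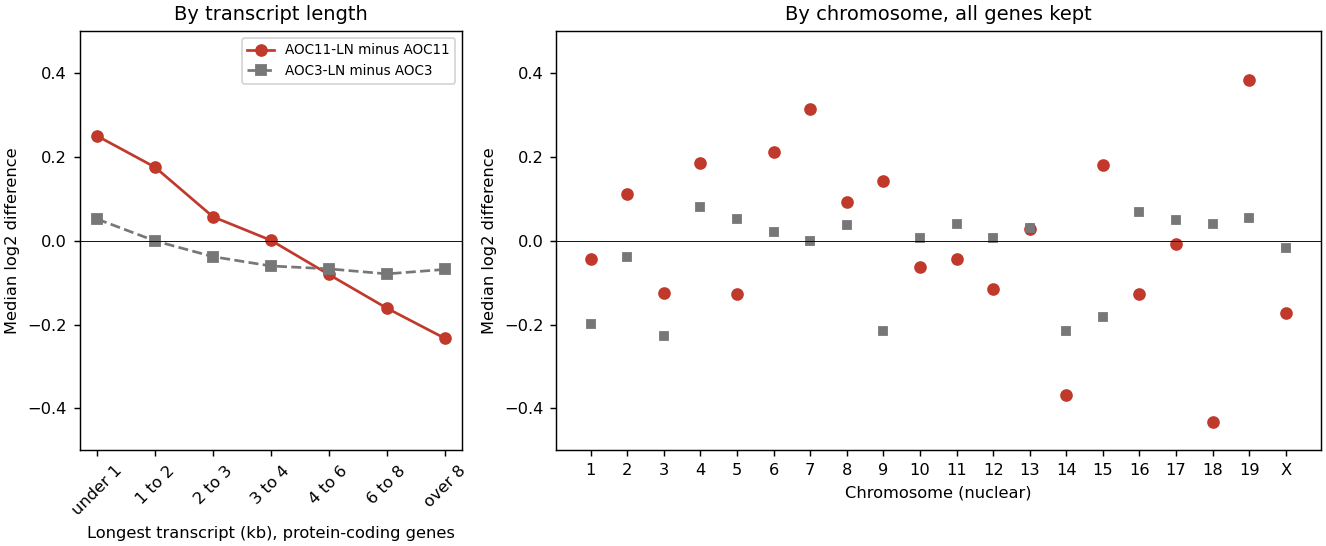
Median log2 difference, AOC11-LN minus AOC11 in log2(FPKM + 1), of protein-coding genes in 7 bins of transcript length in kilobases (left) and of all genes compared on each nuclear chromosome (right), with the AOC3 pair beside it. The AOC11 pair runs from 0.25 in the shortest transcripts to -0.23 in the longest, and of the nuclear chromosomes plotted, 19 and 7 have the highest medians and 14 and 18 the lowest.

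AOC11-LN held more genes above the threshold than below it. Of the 13078 genes, 742 were higher in AOC11-LN (5.67%) and 226 were lower (1.73%), so that 76.7% of the genes past the threshold were higher. After quantile normalization of the 4 columns the share was 64.4%, from 543 higher and 300 lower genes. Most genes differed little, with 69.0% of them within 0.5 and a median difference of 0.04. A difference of 2 was passed by 79 genes upward and 21 downward, and a difference of 3 by 21 and 3. The 1 FPKM filter bears on this balance and on the list counts below. A member under 1 FPKM in 1 line was compared only because of the other line, where it is high. There were 936 genes that were compared only because AOC11-LN reached 1 FPKM, 287 of which passed the threshold, while 222 genes were compared only because of AOC11, with 33 past it. Among the 11920 genes at 1 FPKM or more in both lines, 455 were higher and 193 lower. Genes just at that limit were Sgsm1, a Rab regulator at 1.00014 FPKM in AOC11, which was kept, and the collagen gene Col12a1, whose highest value of 0.999913 FPKM left it out.

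Protein-coding genes made up 540 of the higher and 209 of the lower genes. Processed pseudogenes, copies of spliced mRNAs whose reads can also come from the parent gene, gave 113 higher and 4 lower of 936. Antisense genes gave 27 higher and 1 lower of 288, and lincRNAs 19 and 3 of 248. In the AOC3 pair the direction was the other way, with 140 of 12766 genes higher in AOC3-LN (1.10%) and 429 lower (3.36%), so that 24.6% were higher. Of the 12232 genes compared in both pairs, 140 were past the threshold in both. Of these, 10 were higher in both lymph node lines, 24 were lower in both, 92 were higher in AOC11-LN and lower in AOC3-LN, and 14 were lower in AOC11-LN and higher in AOC3-LN. What overlap the shares of each pair alone would give was not computed, so these counts are descriptive.

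**Figure D2:**
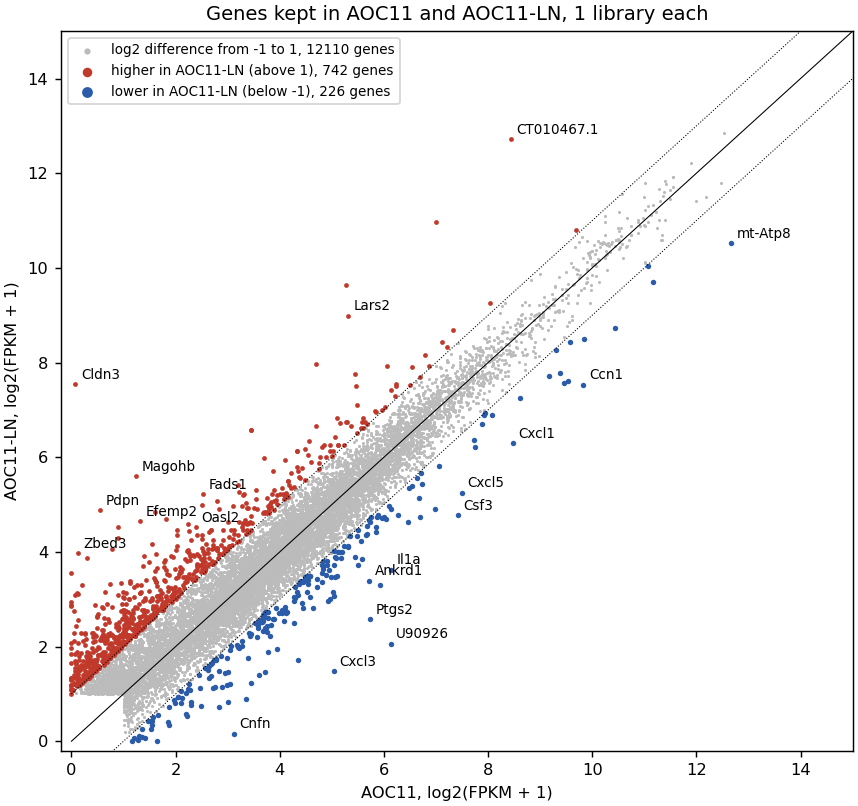
Level in AOC11 (horizontal) and AOC11-LN (vertical), both as log2(FPKM + 1), for the 13078 genes compared, with 1 point per gene, higher genes in red, lower genes in blue and dotted lines at differences of 1 and -1. The 742 higher genes reach down to near 0 in AOC11, where Cldn3, Pdpn and Zbed3 sit, and the ribosomal RNA-like locus CT010467.1 lies at the top, far above the diagonal.

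Cldn3, which encodes the tight junction protein claudin 3, had the largest difference of any protein-coding gene named by the rule. It was at 0.0550 FPKM in AOC11, 186 in AOC11-LN, 197 in AOC3 and 242 in AOC3-LN, a difference of 7.47. AOC11 was the exception among the lines, with an estimated 2 fragments behind its value. The gene lies at chr5:134986214-134987472 (mm10) beside Cldn4, another claudin gene, which was at 449.6 FPKM in AOC11 and 365 in AOC11-LN. Among genes with a transcript of 400 bases or more, 5 were under 0.2 FPKM in AOC11 and at 5 FPKM or more in each of the other 3 lines, and AOC11-LN had 0 such genes. Zbed3, which binds axin in Wnt signaling, was one of them, at 0.0864 FPKM in AOC11, 14.7 in AOC11-LN, 9.92 in AOC3 and 5.03 in AOC3-LN (difference 3.85). Ank, a pyrophosphate exporter, was at 0.155 FPKM in AOC11, 8.84 in AOC11-LN, 8.90 in AOC3 and 18.5 in AOC3-LN (difference 3.09). Chchd5, a small mitochondrial protein gene, was at 0.0971 FPKM in AOC11, 7.69 in AOC11-LN, 14.7 in AOC3 and 15.9 in AOC3-LN (difference 2.99). That these 3 genes and Cldn3 were near 0 in AOC11 only follows from how they were picked. Such counts were not made for AOC3 and AOC3-LN. Slc25a13, the mitochondrial aspartate and glutamate carrier, completed the 5 with 0.0307 FPKM in AOC11 and 5.78 in AOC11-LN.

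A second kind of large difference was made by 4 genes with a transcript of 400 bases or more that reached 5 FPKM in AOC11-LN and stayed under 0.5 FPKM in the other 3 lines. Pax3, a paired-box transcription factor of neural crest and muscle progenitors, was at 0.0453 FPKM in AOC11, 7.51 in AOC11-LN, 0.0141 in AOC3 and 0.0242 in AOC3-LN (difference 3.02). Gjc1, a gap junction connexin gene, was at 0.0832 FPKM in AOC11, 7.79 in AOC11-LN, 0.0692 in AOC3 and 0.0814 in AOC3-LN (difference 3.02). H2afy2, the gene of the histone variant macroH2A2, was at 0.222 FPKM in AOC11, 13.7 in AOC11-LN, 0.442 in AOC3 and 0.245 in AOC3-LN (difference 3.59). The last of the 4 was the readthrough entry RPS10-NUDT3, which lies over Rps10 and Nudt3 and is uncertain. The opposite set, at 5 FPKM or more in AOC11 and under 0.5 FPKM elsewhere, held 1 gene, Cnfn, a cornified envelope protein gene, at 7.69 FPKM in AOC11, 0.115 in AOC11-LN, 0.361 in AOC3 and 0.191 in AOC3-LN (difference -2.96).

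Pdpn encodes podoplanin, a membrane glycoprotein of invasive squamous fronts, lymphatic vessels and fibroblasts. It was at 0.468 FPKM in AOC11, 28.5 in AOC11-LN, 18.2 in AOC3 and 31.2 in AOC3-LN (difference 4.33), again with AOC11 alone at the low end. Efemp2, an elastic fiber protein gene on chromosome 19, was at 1.48 FPKM in AOC11, 24.2 in AOC11-LN, 28.6 in AOC3 and 16.9 in AOC3-LN (difference 3.34). Rbpms, an RNA-binding protein gene, was at 0.870 FPKM in AOC11, 21.9 in AOC11-LN, 34.1 in AOC3 and 10.9 in AOC3-LN (difference 3.62). In other genes AOC11-LN was the highest of the 4 lines. Dhrs3, which reduces retinal to retinol, was at 0.853 FPKM in AOC11, 18.7 in AOC11-LN, 2.18 in AOC3 and 0.594 in AOC3-LN (difference 3.41). Myh10, the heavy chain of nonmuscle myosin IIB, was at 0.711 FPKM in AOC11, 15.8 in AOC11-LN, 3.06 in AOC3 and 11.7 in AOC3-LN (difference 3.29), and Evl, an actin polymerization factor of the Ena/VASP family, at 2.03 FPKM in AOC11, 27.8 in AOC11-LN, 5.85 in AOC3 and 7.18 in AOC3-LN (difference 3.25). Some large values are uncertain because the genes share sequence. Magohb, at 1.37 FPKM in AOC11 and 47.4 in AOC11-LN, has the near-identical copy Magoh. Snurf, at 10.8 FPKM in AOC11-LN and near 0 in the other 3 lines, has a transcript of 216 bases, too short for that count, and overlaps Snrpn, which was at 3.06 FPKM in AOC11 and 21.1 in AOC11-LN. The mitochondrial leucyl-tRNA synthetase gene Lars2 was at 38.7 FPKM in AOC11 and 507 in AOC11-LN. It was itself put on the list of ribosomal RNA-like loci after its values were seen, so its sharing their direction is no separate result.

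Among the lower genes, U90926, whose product is little described, differed most. It was at 69 FPKM in AOC11, 3.16 in AOC11-LN, 0.415 in AOC3 and 0.386 in AOC3-LN (difference -4.07), so that AOC11 alone had a high level. Clec2g, a C-type lectin-like gene, had the same shape with 59.9 FPKM in AOC11, 8.82 in AOC11-LN, 0.199 in AOC3 and 0.199 in AOC3-LN (difference -2.63). Nog, the BMP antagonist noggin, was at 9.21 FPKM in AOC11, 0.862 in AOC11-LN, 3.99 in AOC3 and 4.08 in AOC3-LN (difference -2.46). Cpeb2, a regulator of translation, was at 12.2 FPKM in AOC11, 1.75 in AOC11-LN, 9.30 in AOC3 and 17.8 in AOC3-LN (difference -2.26), where AOC11-LN was the low line. Vgll3, a TEAD cofactor gene, was at 19.3 FPKM in AOC11, 2.28 in AOC11-LN, 3.11 in AOC3 and 0.676 in AOC3-LN (difference -2.63). Prl2c2, a proliferin gene with near-identical copies, was at 9.88 FPKM in AOC11, 1.35 in AOC11-LN, 0.857 in AOC3 and 7.22 in AOC3-LN (difference -2.21). Lce1h, a late cornified envelope gene in a cluster of near-identical copies, was at 11.1 FPKM in AOC11, 1.64 in AOC11-LN, 1.26 in AOC3 and 0.769 in AOC3-LN (difference -2.19). The other named genes with large negative differences are described with their groups.

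Over the genes past the threshold, which of the 4 lines stood out differed by direction. Of the 742 higher genes, AOC11 was the lowest of the 4 lines in 60.4% and AOC11-LN the highest in 77.6%. Of the 226 lower genes, AOC11 was the highest in 74.8% and AOC11-LN the lowest in 67.7%. Over all genes compared, the same 4 shares were 25.3%, 33.7%, 28.1% and 22.9%. The selection on the AOC11 pair itself favors these extreme positions, so the shares are descriptive.

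**Figure D3:**
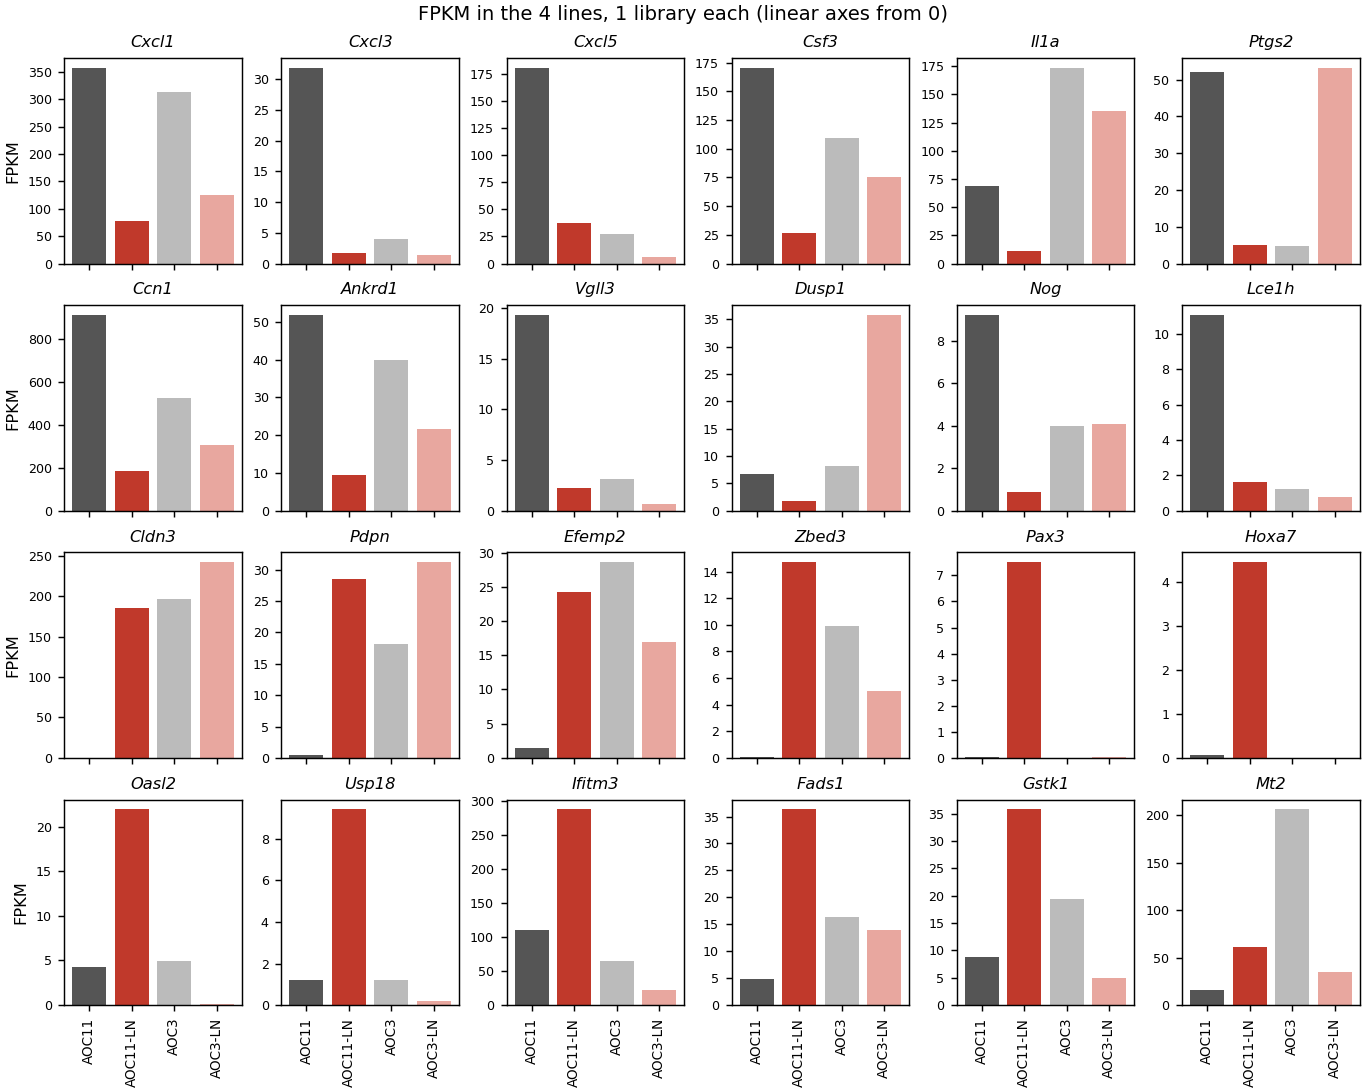
FPKM of 24 genes named in the text, with 1 bar per line (1 library each) and a linear axis from 0 for each gene. Cldn3 and Zbed3 are near 0 and Pdpn is under 0.5 FPKM in AOC11 only, Pax3 and Hoxa7 are over 1 FPKM in AOC11-LN only, and Csf3, Cxcl3 and Il1a are lower in AOC11-LN than in AOC11.

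Neutrophil chemokines and inflammatory cytokines were the group with the most genes lower in AOC11-LN. Of 25 members compared, 13 were lower and 6 higher, and the median difference was -1.05 against 0.04 over all genes. The AOC3 pair had nearly the same median, -1.06 over the 21 members compared there, so a low median was not particular to the AOC11 pair. Counts of this and the later lists stand against 5.67% higher and 1.73% lower over all genes compared. The CXC chemokines that attract neutrophils through the receptor CXCR2 were lower in 4 of 5, with a median of -2.18. Cxcl1 was at 357 FPKM in AOC11, 77.8 in AOC11-LN, 313 in AOC3 and 125 in AOC3-LN (difference -2.18). Cxcl3 was at 31.9 FPKM in AOC11, 1.78 in AOC11-LN, 3.93 in AOC3 and 1.37 in AOC3-LN (difference -3.56), and Cxcl5 at 180.4 FPKM in AOC11, 37.1 in AOC11-LN, 27.3 in AOC3 and 6.15 in AOC3-LN (difference -2.25). AOC11 was the highest line for each of these 3 chemokines. Ppbp, the precursor of the chemokine CXCL7, was at 103 FPKM in AOC11, 25.7 in AOC11-LN, 26.4 in AOC3 and 256 in AOC3-LN (difference -1.96), and here AOC3-LN was the highest. Cxcl2 was low in both lines with 4.32 FPKM in AOC11 and 2.97 in AOC11-LN, a difference of -0.42.

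All 3 colony-stimulating factors were lower in AOC11-LN. Csf3, which encodes G-CSF and drives neutrophil production, was at 170.4 FPKM in AOC11, 26.3 in AOC11-LN, 109 in AOC3 and 75.7 in AOC3-LN (difference -2.65). Csf2, the gene of GM-CSF, was at 7.26 FPKM in AOC11, 1.30 in AOC11-LN, 6.48 in AOC3 and 18.4 in AOC3-LN (difference -1.84). The macrophage factor Csf1 was at 211 FPKM in AOC11, 81.5 in AOC11-LN, 174 in AOC3 and 48.7 in AOC3-LN (difference -1.36). For these, AOC11-LN was the lowest of the 4 lines in Csf3 and Csf2, and AOC3-LN in Csf1. Among the cytokines, Il1a, an alarmin of epithelial cells, was at 69.1 FPKM in AOC11, 11.3 in AOC11-LN, 173 in AOC3 and 136 in AOC3-LN (difference -2.51). Tslp, an epithelial cytokine that acts on dendritic cells, was at 125 FPKM in AOC11 and 28.8 in AOC11-LN (difference -2.08), and Lif, of the interleukin 6 family, at 50.3 FPKM in AOC11 and 19.8 in AOC11-LN (difference -1.30). Il6 itself was listed at 0 in both lines. Not every ligand was lower. Ccl20, a ligand for dendritic cell and T cell traffic, was at 7.03 FPKM in AOC11 and 0.790 in AOC11-LN (difference -2.17), but Cxcl12, the CXCR4 ligand, was at 0.517 FPKM in AOC11 and 5.99 in AOC11-LN (difference 2.20). Ccl20 was compared only because of AOC11 and Cxcl12 only because of AOC11-LN. Cx3cl1, the fractalkine gene, was at 10.7 FPKM in AOC11 and 33.6 in AOC11-LN (difference 1.56). The T cell chemokine Ccl5 was at 4.35 FPKM in AOC11 and 11.8 in AOC11-LN (difference 1.25). Il18 and Ctf1 were also higher, by 1.90 and 2.09.

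NF-kB is a known regulator of many of these chemokines. The promoters of Cxcl1 and Cxcl3, 2 neighboring lower genes on chromosome 5, are shown as examples that hold its motif, which other lower genes lack. The sequences are RefSeq promoters (GRCm38.p6), 250 bases before to 50 bases after the annotated start, 5′ to 3′ on the strand of the gene. The capitals mark matches to GGGNNTTTCC, searched on both strands. Cxcl1 is at chr5:90890995-90891294 and Cxcl3 at chr5:90785851-90786150, both on the plus strand.
Cxcl1: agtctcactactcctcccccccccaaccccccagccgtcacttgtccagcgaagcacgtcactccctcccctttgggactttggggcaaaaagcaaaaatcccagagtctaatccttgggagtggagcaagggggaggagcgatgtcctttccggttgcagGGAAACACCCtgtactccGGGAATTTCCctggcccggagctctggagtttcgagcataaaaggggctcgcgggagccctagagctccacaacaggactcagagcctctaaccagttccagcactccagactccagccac
Cxcl3: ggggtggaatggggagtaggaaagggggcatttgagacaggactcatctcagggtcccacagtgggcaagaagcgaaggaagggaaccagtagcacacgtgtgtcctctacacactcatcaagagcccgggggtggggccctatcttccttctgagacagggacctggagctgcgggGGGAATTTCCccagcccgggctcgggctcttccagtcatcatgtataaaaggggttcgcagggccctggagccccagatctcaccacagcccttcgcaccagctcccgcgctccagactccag
The matches start 89 and 71 bases before the Cxcl1 start and 73 bases before the Cxcl3 start, the first of them on the reverse strand. Of 17411 promoters, 1.56% held this motif, against 6 of the 17 promoters of listed cytokine genes (35.3%) that had an entry. Among the 15 with an entry whose genes passed the threshold in either direction, 5 held it (33.3%). The promoters of the lower genes Il1a, Ppbp, Csf2, Lif and Tnf held none. The RefSeq start of Csf2 lies 232 bases from its start in the annotation of the expression table, so its lack of a match is uncertain. A match describes the letters of the window and says nothing of binding in these cells.

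Prostaglandin genes were split. Of 11 members compared, 3 were lower and 3 higher, with a median of -0.02. Ptgs2, the inducible cyclooxygenase COX-2, was at 52 FPKM in AOC11, 4.95 in AOC11-LN, 4.91 in AOC3 and 53.2 in AOC3-LN (difference -3.16). AOC11 and AOC3-LN were the high lines for it, so the lymph node line was the low one of this pair and the high one of the other. Ptgs1, the constitutive enzyme, was at 4.00 FPKM in AOC11 and 4.28 in AOC11-LN. Pla2g4a, which releases arachidonic acid, was at 18.7 FPKM in AOC11 and 7.10 in AOC11-LN (difference -1.28), and the exporter Abcc4, on chromosome 14, at 6.14 FPKM in AOC11 and 1.82 in AOC11-LN (difference -1.34). Ptges, the enzyme that makes prostaglandin E, was the opposite of Ptgs2 with 1.63 FPKM in AOC11, 14.2 in AOC11-LN, 25.2 in AOC3 and 6.89 in AOC3-LN (difference 2.53). The prostaglandin reductase gene Ptgr1 (difference 1.58) and the D synthase gene Ptgds (difference 1.33) were also higher.

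EGF family ligands and the EGF receptor were lower in part. Of 10 members compared, 3 were lower and none higher, with a median of -0.37, or -0.63 after quantile normalization. Egfr, the receptor, was at 16.6 FPKM in AOC11, 5.64 in AOC11-LN, 15.5 in AOC3 and 11.3 in AOC3-LN (difference -1.40). The ligand gene Hbegf, on chromosome 18, was at 56.5 FPKM in AOC11 and 20.4 in AOC11-LN (difference -1.43) and Ereg at 8.14 FPKM in AOC11 and 2.98 in AOC11-LN (difference -1.20). Areg, the ligand of the same family called amphiregulin, was at 32.1 FPKM in AOC11 and 19.2 in AOC11-LN, a difference of -0.71. Downstream of EGFR, ERK feedback and immediate early genes had 5 lower members and none higher among 28, with a median of -0.45. They were the phosphatase genes Dusp1 (6.75 FPKM in AOC11 and 1.70 in AOC11-LN, difference -1.52) and Dusp14 (49.7 FPKM in AOC11 and 19.4 in AOC11-LN, difference -1.31), the transcription factor gene Klf6 (difference -1.31), the stress gene Ier3 (difference -1.02) and a further phosphatase gene, Dusp8 (difference -1.22). Dusp6, the feedback phosphatase of ERK, was at 49.2 FPKM in AOC11 and 73.7 in AOC11-LN and Fos at 8.16 FPKM in AOC11 and 4.06 in AOC11-LN, and neither passed the threshold. None of the 21 promoters of this list with an entry held the AP-1 motif TGANTCA, which 6.75% of all promoters held.

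Targets of YAP and TEAD, the transcription regulators of the Hippo pathway, were lower in 6 of 18 and higher in none, with a median of -0.59. The matricellular protein gene Ccn1 (Cyr61) was at 909.7 FPKM in AOC11, 184 in AOC11-LN, 524 in AOC3 and 307 in AOC3-LN (difference -2.30). Ccn2 (CTGF) was at 269.9 FPKM in AOC11, 118 in AOC11-LN, 187 in AOC3 and 148 in AOC3-LN (difference -1.18), and Ankrd1, a nuclear ankyrin repeat protein gene, at 51.8 FPKM in AOC11, 9.52 in AOC11-LN, 39.8 in AOC3 and 21.8 in AOC3-LN (difference -2.33). AOC11 was the highest and AOC11-LN the lowest of the 4 lines in Ccn1 and Ankrd1. Crim1, Lats2 and the tissue factor gene F3 differed by -1.83, -1.33 and -1.33. Among the regulators, Yap1 was at 45.4 FPKM in AOC11 and 36.5 in AOC11-LN, below the threshold, while Tead2 was at 19.1 FPKM in AOC11 and 54.3 in AOC11-LN (difference 1.46), and Vgll3, described above, was lower.

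The promoters of Ccn1 and Ankrd1 are shown as those of the 2 YAP and TEAD targets with the most negative differences, with matches to the TEAD motif GGAATG or its complement CATTCC in capitals. Ccn1 is at chr3:145649936-145650235 and Ankrd1 at chr19:36119795-36120094, both on the minus strand (GRCm38.p6, RefSeq).
Ccn1: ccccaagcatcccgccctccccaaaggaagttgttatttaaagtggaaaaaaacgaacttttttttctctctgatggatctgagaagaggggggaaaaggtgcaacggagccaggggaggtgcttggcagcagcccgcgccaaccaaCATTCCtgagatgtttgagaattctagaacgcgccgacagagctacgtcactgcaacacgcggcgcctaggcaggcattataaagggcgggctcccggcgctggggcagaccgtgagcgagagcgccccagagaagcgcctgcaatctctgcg
Ankrd1: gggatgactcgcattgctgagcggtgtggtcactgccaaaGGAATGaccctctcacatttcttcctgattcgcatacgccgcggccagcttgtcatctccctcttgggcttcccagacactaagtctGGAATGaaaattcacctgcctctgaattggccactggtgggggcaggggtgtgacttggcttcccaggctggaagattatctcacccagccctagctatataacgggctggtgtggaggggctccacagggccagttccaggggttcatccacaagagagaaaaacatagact
The match starts 103 bases before the Ccn1 start, and the matches in Ankrd1 210 and 123 bases before its RefSeq start, which lies 255 bases from the start in the annotation of the expression table. Of the 19 promoters of the list, 13 held the motif (68.4%), against 13.6% of all promoters. Among the 7 whose genes passed the threshold in either direction, 5 held it (71.4%). The list was made of known targets and partners of TEAD, so these shares describe the list and not the difference between the lines.

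Actin cytoskeleton and focal adhesion genes gave 4 higher and 6 lower members of 41 (5.67% and 1.73% over all genes), with a median of -0.26. Fermt2 (kindlin 2) was at 27.1 FPKM in AOC11 and 9.25 in AOC11-LN (difference -1.45) and the formin gene Diaph3 at 56.4 FPKM in AOC11 and 22 in AOC11-LN (difference -1.32). Both genes lie on chromosome 14, and less that chromosome's median their differences were -1.09 and -0.95. Actb, cytoplasmic beta-actin, was at 4646 FPKM in AOC11 and 2885 in AOC11-LN, a difference of -0.69 as deposited and -1.11 after quantile normalization. Flnc, the muscle filamin gene, was at 12.4 FPKM in AOC11 and 4.42 in AOC11-LN (difference -1.31). Among the higher genes were Myh10, above, and the collagen-binding integrin gene Itga2 at 2.38 FPKM in AOC11 and 6.67 in AOC11-LN (difference 1.18).

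Extracellular matrix genes were lower in 4 and higher in 6 of 33 members (1.73% and 5.67% over all genes), with a median of -0.38. Lama3, a chain of an epithelial basement membrane laminin, was at 63.4 FPKM in AOC11 and 25.8 in AOC11-LN (difference -1.27), and Lox, the lysyl oxidase that crosslinks collagen and elastin, at 1.66 FPKM in AOC11 and 0.0537 in AOC11-LN (difference -1.34). Both genes lie on chromosome 18, and less its median their differences were -0.84 and -0.90, short of the threshold. The elastic fiber proteins had a positive median of 0.69 over 10 members, with 3 higher, among them Efemp2. Ltbp1 and Ltbp3, whose products bind latent TGF-beta, were at 1.02 FPKM in AOC11 and 4.06 in AOC11-LN (difference 1.32) and 46.6 FPKM in AOC11 and 106 in AOC11-LN (difference 1.17), and Ltbp3 lies on chromosome 19, like Efemp2. Col18a1, a basement membrane collagen gene, was at 40.2 FPKM in AOC11 and 99.4 in AOC11-LN (difference 1.29), and Col16a1, a fibril-associated collagen gene, at 0.829 FPKM in AOC11 and 3.59 in AOC11-LN (difference 1.33). Col16a1 was compared only because AOC11-LN reached 1 FPKM.

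Keratin and junction genes were mixed, while several cornified envelope and secreted defense genes were lower. Of 53 squamous genes compared, 4 were higher and 10 lower (5.67% and 1.73% over all genes), with a median of -0.07. The simple keratin genes Krt8 (949 FPKM in AOC11 and 986 in AOC11-LN) and Krt18 (957 FPKM in AOC11 and 1115 in AOC11-LN) and the basal keratin gene Krt14 (257 FPKM in AOC11 and 259 in AOC11-LN) did not pass the threshold. Krt5, the basal partner of keratin 14, was at 4.99 FPKM in AOC11, 17 in AOC11-LN, 499 in AOC3 and 275 in AOC3-LN (difference 1.59), far below the AOC3 pair in both lines. Krt7, a ductal keratin gene, was at 635 FPKM in AOC11, 306 in AOC11-LN, 13 in AOC3 and 5.91 in AOC3-LN (difference -1.05, and -0.97 after quantile normalization, short of the threshold), far above the AOC3 pair in both. Krt80 was at 69 FPKM in AOC11 and 29 in AOC11-LN (difference -1.22). Gata3, a transcription factor gene of epidermal and luminal cells, was at 0.432 FPKM in AOC11 and 5.42 in AOC11-LN (difference 2.17). Cldn1, a claudin gene of the squamous barrier, was at 1.88 FPKM in AOC11 and 0.199 in AOC11-LN (difference -1.26), in contrast to Cldn3.

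Of 14 genes compared in a group of cornified envelope, S100 and secreted defense proteins, 7 were lower and none higher, with a median of -1.04. Besides Cnfn and Lce1h these were the envelope gene Crct1 (difference -1.12), Lce1g, of the same cluster of near-identical genes, at 4.63 FPKM in AOC11 and 0.671 in AOC11-LN (difference -1.75), the antiprotease gene Slpi at 44.3 FPKM in AOC11 and 12.2 in AOC11-LN (difference -1.78), the iron-scavenging lipocalin Lcn2 at 33.2 FPKM in AOC11 and 10.3 in AOC11-LN (difference -1.60) and S100a14 at 393 FPKM in AOC11 and 150.4 in AOC11-LN (difference -1.38). Cnfn thus had the most negative difference of the group.

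Several regulators of mesenchyme and of embryonic patterning were higher in AOC11-LN. Of 24 mesenchymal and EMT genes, 12 were compared, with 5 higher and none lower, and of 36 developmental regulators of the HOX, DLX, sine oculis and EYA families, 12 were compared, with 6 higher and none lower. Several were compared only because AOC11-LN reached 1 FPKM, so these counts and their medians of 0.63 and 1.11 carry that selection. Twist1, which represses epithelial genes, was at 4.69 FPKM in AOC11, 16 in AOC11-LN, 16.4 in AOC3 and 14.5 in AOC3-LN (difference 1.58). Prrx2, a homeobox gene of craniofacial mesenchyme, was at 2.09 FPKM in AOC11 and 9.34 in AOC11-LN (difference 1.74), and Zeb2, another repressor of E-cadherin, at 0.451 FPKM in AOC11 and 1.93 in AOC11-LN (difference 1.01, and 0.76 after quantile normalization, short of the threshold). The related Zeb1 was under 0.2 FPKM in both lines. The matrix protein gene Postn was at 0.757 FPKM in AOC11 and 3.54 in AOC11-LN (difference 1.37). Vim, the mesenchymal intermediate filament vimentin, was at 35.4 FPKM in AOC11 and 27.2 in AOC11-LN, a difference of -0.37. Cdh1, as given above, did not pass the threshold either. Of the 12 fibroblast markers, 2 reached 1 FPKM in either line, Pdpn and Acta2, and the part of fibroblast RNA in these values was not tested.

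Eya2, a transcriptional coactivator of organ development, was at 0.642 FPKM in AOC11, 4.74 in AOC11-LN, 30.9 in AOC3 and 17 in AOC3-LN (difference 1.80). In the HOXA cluster, which sets position along the body axis, Hoxa7 was at 0.0651 FPKM in AOC11, 4.44 in AOC11-LN, 0 in AOC3 and 0 in AOC3-LN (difference 2.35). Hoxa4 was at 0.0629 FPKM in AOC11 and 2.15 in AOC11-LN, and Hoxa5 was listed at 0 in AOC11 and at 1.54 FPKM in AOC11-LN. Dlx3, a regulator of epidermal and craniofacial development, was at 1.04 FPKM in AOC11 and 5.03 in AOC11-LN (difference 1.56). The annotations of Hoxa4 and Hoxa5 overlap those of Hoxa3 and an antisense gene, so the source of their reads is uncertain. AOC11-LN was the highest line in Hoxa7, while AOC3 was in Eya2.

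TGF-beta and BMP signaling genes had 4 lower and 1 higher of 23 (1.73% and 5.67% over all genes), with a median of -0.35. The lower genes were Nog, the activin binder Fst at 14.4 FPKM in AOC11 and 2.84 in AOC11-LN (difference -2.01), and the BMP target genes Id2 at 31.6 FPKM in AOC11 and 7.96 in AOC11-LN (difference -1.87) and Id1 at 61.7 FPKM in AOC11 and 25.3 in AOC11-LN (difference -1.25). Tgfb3, a TGF-beta ligand gene, was the higher one at 0.0461 FPKM in AOC11 and 2.23 in AOC11-LN (difference 1.63). Wnt and Notch genes had 1 higher and 1 lower of 22 (5.67% and 1.73% over all genes), Zbed3 and Apc. The tumor suppressor gene Apc, whose product holds beta-catenin in check, was at 12.1 FPKM in AOC11 and 4.26 in AOC11-LN (difference -1.32) and lies on chromosome 18.

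Interferon-stimulated genes had the most members higher in AOC11-LN. Of 49 compared, 24 were higher and none lower, 43 had a difference above 0, and the median was 0.99. After quantile normalization 17 were higher and the median was 0.71. There were 13 members compared only because AOC11-LN reached 1 FPKM, 8 of them among the 24, and over all 54 listed genes with no filter the median was 0.74. Antiviral effectors made up 17 of the 24. Oasl2, a member of the oligoadenylate synthetase family, was at 4.24 FPKM in AOC11, 21.9 in AOC11-LN, 4.95 in AOC3 and 0.138 in AOC3-LN (difference 2.13). Usp18, which removes ISG15 from proteins and dampens interferon receptor signaling, was at 1.19 FPKM in AOC11, 9.43 in AOC11-LN, 1.20 in AOC3 and 0.175 in AOC3-LN (difference 2.25). Isg15, the ubiquitin-like modifier, was at 4.87 FPKM in AOC11, 14.5 in AOC11-LN, 4.40 in AOC3 and 0.411 in AOC3-LN (difference 1.40). For these 3 genes AOC11-LN was the highest and AOC3-LN the lowest of the 4 lines. Zbp1, a sensor of Z-form nucleic acid, was at 0.503 FPKM in AOC11 and 6.19 in AOC11-LN (difference 2.26), and Ifitm3, a membrane protein that blocks virus entry, at 109.7 FPKM in AOC11, 287 in AOC11-LN, 65.4 in AOC3 and 22.2 in AOC3-LN (difference 1.38). Uba7, the enzyme that activates ISG15, and Rtp4 differed by 1.98 and 1.90. The GTPase gene Tgtp2, at 0.414 FPKM in AOC11 and 4.25 in AOC11-LN (difference 1.89), has the near-identical copy Tgtp1 and is uncertain. Over the 32 members that reached 1 FPKM in at least 1 line of each pair, the median was 0.63 in the AOC11 pair and -0.89 in the AOC3 pair. With no filter, the AOC3 pair median over all 54 was -0.62.

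Guanylate-binding and other interferon-induced GTPases were higher in 5 of 9, among them Gbp2 at 4.14 FPKM in AOC11 and 14.2 in AOC11-LN (difference 1.56). The receptors and transcription factors of the pathway were higher in 2 of 13, with a median of 0.15. Irf7, which amplifies type I interferon, was at 1.19 FPKM in AOC11 and 3.54 in AOC11-LN (difference 1.05, and 0.80 after quantile normalization, short of the threshold). Jak2, a kinase gene on chromosome 19, was at 8.30 FPKM in AOC11 and 17.7 in AOC11-LN (difference 1.01).

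The interferon-stimulated response element, the site of STAT and IRF complexes, was searched as GAAANNGAAA on both strands. The promoters of Isg15 (chr4:156200769-156201068, minus strand) and Gbp2 (chr3:142620413-142620712, plus strand) are shown as those of an effector and a GTPase higher in AOC11-LN, with matches in capitals, where overlapping matches run together.
Isg15: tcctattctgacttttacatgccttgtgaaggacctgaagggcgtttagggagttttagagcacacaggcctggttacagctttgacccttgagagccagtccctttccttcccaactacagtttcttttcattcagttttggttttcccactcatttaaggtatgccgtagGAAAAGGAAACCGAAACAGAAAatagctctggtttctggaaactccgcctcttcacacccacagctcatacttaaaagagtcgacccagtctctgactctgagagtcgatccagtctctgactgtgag
Gbp2: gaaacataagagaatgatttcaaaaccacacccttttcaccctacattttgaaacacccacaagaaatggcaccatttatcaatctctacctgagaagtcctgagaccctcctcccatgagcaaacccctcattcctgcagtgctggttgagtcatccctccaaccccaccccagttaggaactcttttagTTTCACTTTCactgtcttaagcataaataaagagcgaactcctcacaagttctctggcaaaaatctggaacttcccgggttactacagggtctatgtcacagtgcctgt
In Isg15, matches start 78, 72 and 66 bases before the start and overlap, and in Gbp2 a match on the reverse strand starts 59 bases before it (GRCm38.p6, RefSeq). Of 44 promoters of the list, 23 held the motif (52.3%), as did 12 of the 20 whose genes were higher (60%), against 3.16% of all promoters. The list was made of known interferon targets, so these shares describe the list and not the difference between the lines.

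Genes of MHC class I presentation, which shows peptides to CD8 T cells, were higher in 4 of 23 and lower in none. Their median was 0.35, and over all genes 5.67% were higher and 1.73% lower. The immunoproteasome subunit genes Psmb8 and Psmb9 were at 9.07 FPKM in AOC11 and 24.7 in AOC11-LN (difference 1.35) and 3.44 FPKM in AOC11 and 10.1 in AOC11-LN (difference 1.32). Tap1, the peptide transporter, was at 2.78 FPKM in AOC11 and 6.38 in AOC11-LN and B2m, the light chain, at 452 FPKM in AOC11 and 851 in AOC11-LN, with differences of 0.97 and 0.91. The heavy chain gene H2-K1 was at 393 FPKM in AOC11 and 449 in AOC11-LN. The nonclassical genes H2-Q6 and H2-Q7 have near-identical sequences, and their values are uncertain. Of 9 checkpoint ligand genes compared, none passed the threshold in either direction, and Cd274, which encodes PD-L1, was under 1 FPKM in both lines with 0.790 FPKM in AOC11 and 0.898 in AOC11-LN.

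**Figure D4:**
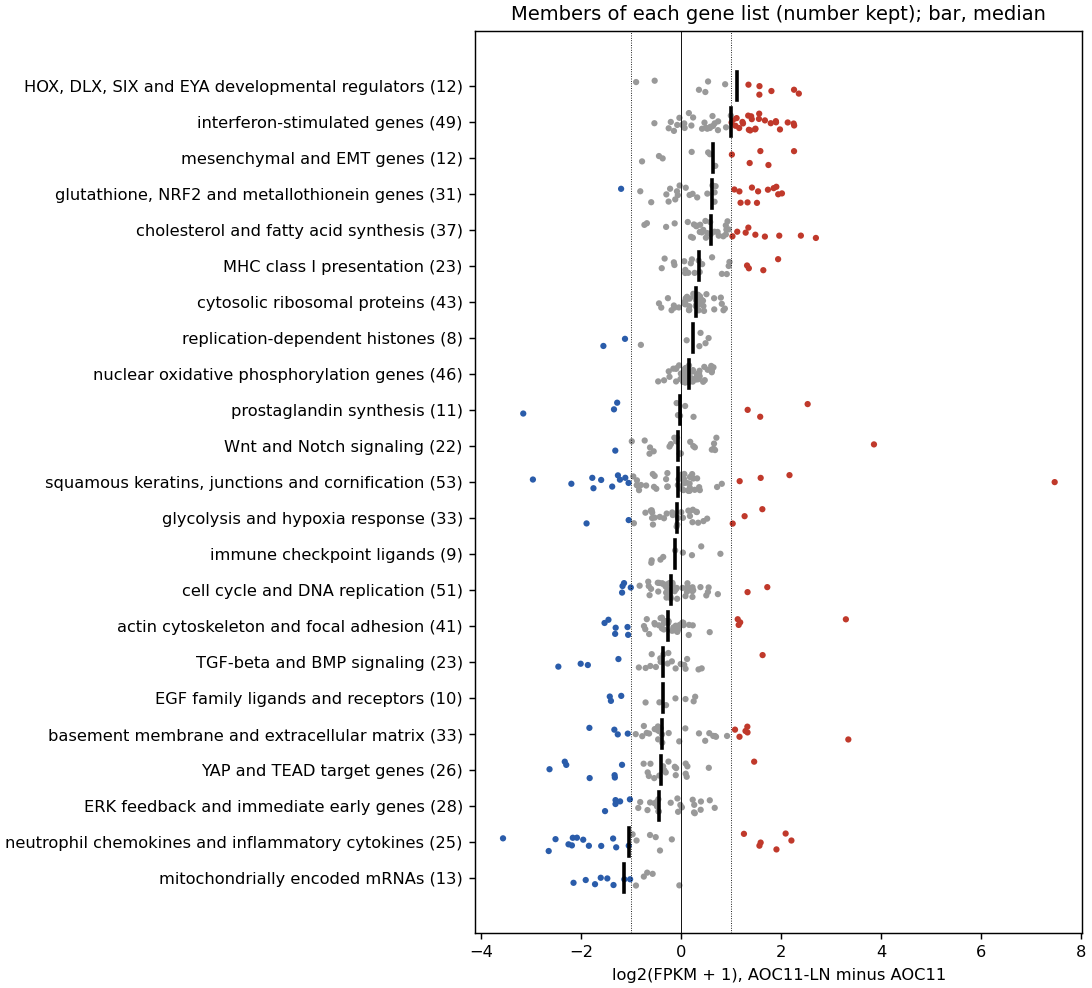
Log2 difference, AOC11-LN minus AOC11 in log2(FPKM + 1), of every compared member of the gene lists, with 1 point per gene (red higher, blue lower, gray within the threshold), a bar at the median of each list, the number of members compared in parentheses and dotted lines at differences of 1 and -1. Chemokines and cytokines (median -1.05) and mitochondrially encoded mRNAs (-1.14) lie mostly below 0, and interferon-stimulated genes (0.99) lie mostly above it.

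Mitochondrially encoded mRNAs, which specify subunits of the respiratory chain, were all lower in value. Of 13, 8 passed the threshold, with a median of -1.14, and 6 of these encode complex I. The complex I genes mt-Nd1 and mt-Nd2 were at 2308 FPKM in AOC11 and 829 in AOC11-LN (difference -1.48) and 1391 FPKM in AOC11 and 421 in AOC11-LN (difference -1.72). The complex I genes mt-Nd5 and mt-Nd4 differed by -1.61 and -1.35, and mt-Nd4l, which overlaps mt-Nd4, by -1.91. The complex IV genes mt-Co1 and mt-Co3 were at 5664 FPKM in AOC11 and 3537 in AOC11-LN and 1705 FPKM in AOC11 and 1663 in AOC11-LN, with differences of -0.68 and -0.04, so the transcripts of the mitochondrial genome did not share 1 difference. mt-Atp8 had the most negative difference of them at 6506 FPKM in AOC11, 1464 in AOC11-LN, 10081 in AOC3 and 8353 in AOC3-LN (difference -2.15), but its transcript has 204 bases and overlaps mt-Atp6. The nuclear genes of the same complexes had a median of 0.16 over 46, and none passed the threshold. Cytosolic ribosomal protein genes had a median of 0.30 over 43, or 0.11 after quantile normalization, and none passed it either.

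Cholesterol and fatty acid synthesis genes were higher in 9 of 37 and lower in none, with a median of 0.59 and 33 differences above 0. Fads1, the delta-5 desaturase of polyunsaturated fatty acids, was at 4.77 FPKM in AOC11, 36.3 in AOC11-LN, 16.3 in AOC3 and 14 in AOC3-LN (difference 2.69) and its neighbor Fads2 at 37.6 FPKM in AOC11 and 107 in AOC11-LN (difference 1.48). The stearoyl-CoA desaturase genes Scd1 and Scd2 were at 24.9 FPKM in AOC11 and 99.9 in AOC11-LN (difference 1.96) and 161 FPKM in AOC11 and 409 in AOC11-LN (difference 1.34). Tm7sf2, a sterol reductase gene that overlaps Vps51 on the same strand, was at 0.933 FPKM in AOC11 and 9.15 in AOC11-LN (difference 2.39), and the lipoprotein receptor gene Vldlr at 0.338 FPKM in AOC11 and 3.27 in AOC11-LN (difference 1.67). Tm7sf2 and Vldlr, both among the 9, were compared only because AOC11-LN reached 1 FPKM. All 6 members on chromosome 19 were among the 9. Off that chromosome, Insig1, Hmgcs1 and Lss differed by 1.29, 1.12 and 1.03. With the median of each chromosome subtracted, an alternative chosen after seeing the data, the list median was 0.54 and 10 members passed the threshold.

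Glutathione transferases, which conjugate electrophiles such as metabolites of carcinogens, were higher in 8 of 14 and lower in none, with a median of 1.11. Less the median of their transcript length bin, 5 were higher and the median was 0.90. Gstk1 was at 8.85 FPKM in AOC11, 35.8 in AOC11-LN, 19.4 in AOC3 and 5.04 in AOC3-LN (difference 1.90), Gstt3 at 1.02 FPKM in AOC11 and 7.14 in AOC11-LN (difference 2.01) and Gstm1 at 3.75 FPKM in AOC11 and 14.8 in AOC11-LN (difference 1.73). Gstm4, of the same mu class as Gstm1, differed by 1.54. Gstm7, among the 8, was listed at 0 in AOC11 and at 1.28 FPKM in AOC11-LN, through which alone it was compared. The metallothionein genes Mt1 and Mt2, whose products bind zinc and copper, were at 27.1 FPKM in AOC11 and 73.8 in AOC11-LN (difference 1.41) and 16.1 FPKM in AOC11 and 60.7 in AOC11-LN (difference 1.85). Targets of the oxidative stress regulator NRF2 did not share this direction, with 2 higher and 1 lower of 15 and a median of -0.07. Hmox1, heme oxygenase 1, was the lower one at 38.5 FPKM in AOC11 and 16.2 in AOC11-LN (difference -1.20), and Aldh3b1, on chromosome 19, was higher at 3.94 FPKM in AOC11 and 17.9 in AOC11-LN (difference 1.94). Txnrd1, the thioredoxin reductase gene, was at 119.7 FPKM in AOC11 and 67.5 in AOC11-LN, a difference of -0.82.

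Proliferation and glycolysis genes differed little as groups. Of 51 cell cycle genes, 2 were higher and 4 lower (1 lower less chromosome medians), with a median of -0.21, where 5.67% and 1.73% of all genes were. The 2 higher genes were neighbors on chromosome 4, Cdkn2a (p16 and p19ARF) at 137 FPKM in AOC11 and 345 in AOC11-LN (difference 1.33) and Cdkn2b (p15) at 33.4 FPKM in AOC11 and 112 in AOC11-LN (difference 1.72), both inhibitors of G1 progression. Ccnd2, a D-type cyclin gene, was at 32.5 FPKM in AOC11 and 13.8 in AOC11-LN (difference -1.18) and the ribonucleotide reductase gene Rrm2 at 245 FPKM in AOC11 and 122 in AOC11-LN (difference -1.01). The centromere protein gene Cenpi and the mitotic kinase gene Pbk differed by -1.17 and -1.14. Mki67, the proliferation marker Ki-67, was at 49.9 FPKM in AOC11 and 35.8 in AOC11-LN and Ccnd1 at 219 FPKM in AOC11 and 318 in AOC11-LN, both short of the threshold. Of 8 histone genes compared, 2 were lower, Hist1h1c (difference -1.55) and Hist1h4i (difference -1.12), and the median was 0.24 as deposited and -0.07 after quantile normalization, so the list had no stable direction. Glycolysis and hypoxia genes had 3 higher and 2 lower of 33 (5.67% and 1.73% over all genes) and a median of -0.08. Car9, the carbonic anhydrase of hypoxic cells, was at 12.7 FPKM in AOC11 and 2.69 in AOC11-LN (difference -1.89), and Ddit4, an inhibitor of mTORC1, at 74.7 FPKM in AOC11 and 181 in AOC11-LN (difference 1.27). The glycolytic enzyme gene Aldoc (difference 1.62) and the lactate dehydrogenase gene Ldhb (difference 1.03, and 0.995 after quantile normalization) were higher, and the lactate exporter gene Slc16a3 (difference -1.05) was lower.

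Differences were also uneven along the genome. The median was 0.38 on chromosome 19, where 51 of 468 genes compared were higher (10.9%) and 1 was lower, and 0.32 on chromosome 7, where 92 were higher (9.69%). It was 0.21 on chromosome 6, with 72 higher genes (11.3%). On chromosome 14 the median was -0.37, with 25 of 444 genes lower (5.63%), and on chromosome 18 it was -0.43, with 24 of 337 lower (7.12%). These chromosomes 14 and 18 held 49 of the 226 lower genes. Several genes named above lie there, such as Abcc4, Fermt2 and Diaph3 on chromosome 14 and Tslp, Hbegf and Lama3 on chromosome 18, while Efemp2, Ltbp3, Fads1, Scd1, Aldh3b1 and Jak2 lie on chromosome 19. Less the median of their chromosome, some named genes were short of the threshold. On chromosome 18, Hbegf was then at -0.995 and Apc at -0.88, and on chromosome 14 Abcc4 at -0.97, Lats2 at -0.96 and Pbk at -0.77. On chromosome 19, Ltbp3 was at 0.78, Scd2 at 0.96 and Jak2 at 0.62. Irf7, Ldhb, Zeb2, Rrm2, Cenpi and the envelope gene Crct1 (-0.99), on other nuclear chromosomes, were also short of it. The chromosome number of the cells was not measured, and its part in these differences was not tested.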

How the data were processed

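RNA of 4 cell lines was sequenced, with 1 library per line. Per the labels and the methods of the study, reads were trimmed with Trim Galore, aligned to mm10 with TopHat2 and quantified with Cufflinks on GENCODE M21, and the authors deposited FPKM for 34721 entries. The versions and the strand setting of the counting are not given in the sources used here. Quantile normalization is named by the study, but the columns of the deposited table are not quantile normalized, so it was run as an alternative. FPKM of entries with the same gene identifier (29 genes) were summed, and 34685 genes remained.

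Differences were taken as log2(FPKM + 1) of AOC11-LN minus AOC11 for genes with 1 FPKM or more in either line and a longest transcript of 200 bases or more, and those past 1 in size were named higher or lower. With 1 library per line no test was run. The gene lists (23), the marker lists (6) and the genes compared were chosen with earlier results of these data known. Named were the 15 protein-coding genes that differed most upward and the 15 that differed most downward (5 FPKM or more, transcript of 400 bases or more), up to 6 members past the threshold in each list, the best-known members of a role, genes that the study labels for this pair, and defining markers. Further list members were named after their values were seen. The ribosomal RNA-like list was made after seeing the data. Fragment numbers were estimated from the steps between low FPKM of 9528 single-transcript genes, of which 66.5% (AOC11) and 65.3% (AOC11-LN) fell within 0.1 of a whole number, so depth is approximate. Motifs were searched in RefSeq promoters, 1 per gene. The alternatives were 4 other scalings, other pseudocounts, filters, thresholds and gene types, and 3 chosen after seeing the data. The scripts (Python 3.11.15, pandas 2.3.3, numpy 2.4.6, matplotlib 3.10.9) were tested on simulated data. Irf8, Aprt, Gins2, Foxc2, Hoxa11, Six6, Cox4i1, Rpl13, Mvd and Cdt1 were not analysed here. A few further genes are not reported here.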

Additional observations from a re-analysis of the deposited data

Results flagged for a closer look

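The 2 pairs of lines differed in direction in several results, each flagged because the lymph node line lay on opposite sides of its primary line in the AOC11 pair and in the AOC3 pair. With 1 library per line these differences between pairs were not tested. Of the genes past a log2 difference of 1, 76.7% were higher in AOC11-LN than in AOC11, against 24.6% higher in AOC3-LN than in AOC3. The median difference of the interferon-stimulated genes was 0.99 over 49 members compared in the AOC11 pair and -0.89 over 32 in the AOC3 pair. Over the 32 members that reached 1 FPKM in at least 1 line of each pair, it was 0.63 and -0.89. Over all 54 listed members with no filter, it was 0.74 and -0.62. Ptgs2 (COX-2) differed by -3.16 in the AOC11 pair and by 3.20 in the AOC3 pair, and Prl2c2, a proliferin gene with near-identical copies, by -2.21 and 2.15. Rbpms, an RNA-binding protein gene, differed by 3.62 in the AOC11 pair and by -1.56 in the AOC3 pair.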

How the results depend on the processing

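The 32 genes named by the rule for large differences and study labels kept their direction and stayed past the threshold of the respective setting in all 509 values under 16 alternatives, and the 13 of 23 lists with a median of at least 0.3 in size kept its sign. Most of these genes were chosen from the same values for their large differences, so their stability follows largely from that choice. The number and share of genes past the threshold did move. The share that was higher was 76.7% as deposited. It was 64.4% after quantile normalization, 67.4% with equal sums without mitochondrial genes, 69.5% at 5 FPKM or more and 71.1% with no length filter. For protein-coding genes it was 72.1%, at a 1.5-fold threshold 63.5% and with length bins subtracted 68.0%. With the ribosomal RNA-like loci left out and the columns also scaled to equal sums of the rest, it was 70.0%. Against 742 higher genes there were 1301 with a pseudocount of 0.1, 431 at 5 FPKM or more, 2033 at 1.5-fold and 79 at a log2 difference of 2. Against 226 lower genes there were 402 with the pseudocount of 0.1, 369 with no length filter, 1167 at 1.5-fold and 21 at a log2 difference of 2. A lower threshold, a smaller pseudocount and a stricter filter change the number of genes by construction, and for the scalings the cause was not tested. No paired analysis was possible because each line has 1 library. For the same reason no replicate could be left out, and the spread between cultures of 1 line is unknown. At the estimated depth, values under 0.2 FPKM rest on few fragments.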

Other observations

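The 24 genes that were lower in both lymph node lines than in their primary lines are not one gene group, and those below were picked after their values were seen. Cxcl1 differed by -2.18 in the AOC11 pair and -1.32 in the AOC3 pair, Cxcl5 by -2.25 and -1.99, and Csf1 by -1.36 and -1.82. F3, the tissue factor that starts coagulation, differed by -1.33 and -1.71. The growth factor genes Pdgfb and Pgf, which act on pericytes and endothelium, were also in this set. Pdgfb was at 103.6 FPKM in AOC11 and 49.5 in AOC11-LN, and at 94.9 FPKM in AOC3 and 26.8 in AOC3-LN. Pgf was at 16.3 FPKM in AOC11 and 5.54 in AOC11-LN, and at 5.54 FPKM in AOC3 and 1.73 in AOC3-LN. Slpi and Lcn2, secreted defense proteins of epithelium, were lower in both pairs too, by differences of -1.78 and -3.40 for Slpi and of -1.60 and -3.88 for Lcn2.

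The 10 genes higher in both lymph node lines were fewer and of mixed function. Bcat1, a branched-chain amino acid transaminase gene, was at 0.365 FPKM in AOC11 and 3.77 in AOC11-LN, and at 5.19 FPKM in AOC3 and 13.7 in AOC3-LN. Myh10, described above, differed by 3.29 in the AOC11 pair and 1.64 in the AOC3 pair. Palmd, a palmdelphin gene of the paralemmin family, was at 3.76 FPKM in AOC11 and 20.7 in AOC11-LN, and at 3.61 FPKM in AOC3 and 11.4 in AOC3-LN. Ccl27a, an epidermal chemokine gene whose value is uncertain because near-identical copies exist, was at 4.71 FPKM in AOC11 and 11.4 in AOC11-LN, and at 4.23 FPKM in AOC3 and 11.3 in AOC3-LN. Sp7, the osterix gene of bone formation, was listed at 0 in both primary lines and at 2.56 FPKM in AOC11-LN and 1.03 FPKM in AOC3-LN. It was compared in both pairs only because the lymph node line reached 1 FPKM, as was Bcat1 in the AOC11 pair. With 1 library per line the sharing of these genes between pairs was not tested, and the overlap that the shares of each pair alone would give was not computed.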
